A study of Homo sapiens with 12 samples.

Results

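The glycolysis and hypoxia genes described here are 37 of the 27011 genes in the count tables. They were taken by name: 15 enzymes that carry glucose to pyruvate, 4 enzymes that set the fate of pyruvate, 3 transporters, 2 bifunctional PFKFB enzymes, 3 genes of oxygen sensing and 10 genes known as targets of the hypoxia response. The rule used names only, but earlier results of these data were known when the genes were chosen. The series measured mRNA by RNA-seq and ribosome-protected fragments by Ribo-seq in HEK293T cells, a transformed line from human embryonic kidney. Cells were WT, 4EHP-null (lacking the cap-binding protein 4EHP, encoded by EIF4E2) or GIGYF1/2-null (lacking both GIGYF1 and GIGYF2, the scaffold proteins that bind 4EHP). Each genotype had 2 biological replicates in each assay, 12 libraries in all. No cells were treated, and all were harvested 24 hours after plating. The sources used here do not say how the null lines were made or whether each is 1 clone, so genotype and line cannot be told apart.

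Glycolysis splits glucose into pyruvate in the cytosol, with hexokinase, phosphofructokinase and pyruvate kinase as its regulated steps, and lactate dehydrogenase turns pyruvate into lactate. When oxygen falls, the EGLN prolyl hydroxylases stop marking HIF-1α for destruction, and the factor binds short ACGTG or GCGTG elements near genes for glucose uptake, glycolysis, mitophagy and blood vessel growth. Proliferating transformed cells such as HEK293T run glycolysis at a high rate even with oxygen present. The complex of 4EHP and GIGYF1/2 is known for repressing translation and promoting decay of the mRNAs it is brought to.

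Total counts ran from 26143118 to 38175701 in RNA-seq and from 6536493 to 10816080 in Ribo-seq libraries. Levels are given as CPM, counts scaled to each library's effective size, and are compared between libraries only. Changes are log2 fold changes ± standard error. A gene is called where edgeR's quasi-likelihood test gave an adjusted p under 0.05 over all genes tested. EIF4E2 mRNA stood at 123 and 123 CPM in WT, 51.0 and 46.7 CPM in 4EHP-null and 131 and 137 CPM in GIGYF1/2-null libraries, lowest in the genotype that lacks its protein. GIGYF1 mRNA stood at 41.2 and 40.8 CPM in WT, 38.9 and 39.3 CPM in 4EHP-null and 22.4 and 26.0 CPM in GIGYF1/2-null libraries, while GIGYF2 mRNA was not lower in GIGYF1/2-null (96.7 and 81.8 CPM against 81.2 and 66.1 CPM in WT), and neither protein was measured. Of 12 marker genes of HEK293T cells, 10 exceeded 1 CPM in every RNA-seq library. Their summed level was 1193 to 1349 CPM in WT, 919.5 to 1047 CPM in 4EHP-null and 1083 to 1332 CPM in GIGYF1/2-null libraries. The 7 fibroblast markers summed to 6.91 to 7.29 CPM in WT, 7.21 to 9.07 CPM in 4EHP-null and 12.2 to 12.6 CPM in GIGYF1/2-null libraries, with COL1A2, DCN, THY1 and FAP at no more than 3 counts in all 6. Leukocyte, endothelial, hepatocyte and skeletal muscle markers summed to no more than 4.15, 0.877, 0.475 and 1.14 CPM. The part of these marker differences in the results below was not tested.

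Against WT, HK2 and ENO1 mRNA was lower in GIGYF1/2-null cells, ENO2 higher in both knockouts and BNIP3 lower in 4EHP-null cells. The upstream windows of these 4 called members are shown, and each holds at least 1 match to the HIF element. Each is the 250 bases before the first transcription start that RefSeq lists for the gene (GRCh38.p14, 5′ to 3′ on the gene's strand), and capitals mark ACGTG or GCGTG or their reverse complements CACGT or CACGC. The windows are chr2:74833877-74834126 (plus strand) for HK2, chr1:8878687-8878936 (minus strand) for ENO1, chr12:6914330-6914579 (plus strand) for ENO2 and chr10:131981924-131982173 (minus strand) for BNIP3.
HK2: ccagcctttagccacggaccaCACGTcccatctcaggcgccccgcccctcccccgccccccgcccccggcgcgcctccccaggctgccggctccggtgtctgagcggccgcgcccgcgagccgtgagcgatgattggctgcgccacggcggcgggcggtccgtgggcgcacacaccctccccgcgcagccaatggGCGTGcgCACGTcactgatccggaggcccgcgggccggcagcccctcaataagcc
ENO1: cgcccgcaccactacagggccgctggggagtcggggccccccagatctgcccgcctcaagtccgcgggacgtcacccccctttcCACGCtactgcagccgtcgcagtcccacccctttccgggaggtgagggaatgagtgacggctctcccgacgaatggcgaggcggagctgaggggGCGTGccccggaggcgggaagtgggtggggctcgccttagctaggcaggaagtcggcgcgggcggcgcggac
ENO2: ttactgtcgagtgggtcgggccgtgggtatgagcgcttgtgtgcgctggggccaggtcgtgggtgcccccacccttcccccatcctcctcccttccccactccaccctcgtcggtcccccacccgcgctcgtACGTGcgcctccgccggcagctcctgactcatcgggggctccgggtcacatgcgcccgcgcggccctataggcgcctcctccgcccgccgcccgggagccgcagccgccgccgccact
BNIP3: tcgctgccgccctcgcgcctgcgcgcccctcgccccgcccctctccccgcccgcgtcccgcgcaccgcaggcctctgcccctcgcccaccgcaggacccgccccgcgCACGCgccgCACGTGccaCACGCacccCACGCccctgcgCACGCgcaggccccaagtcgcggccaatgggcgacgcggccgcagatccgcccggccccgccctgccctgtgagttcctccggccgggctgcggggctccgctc

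The HK2 window holds 3 matches, the ENO1 window 2, the ENO2 window 1 and the BNIP3 window 6, in which overlapping matches on the 2 strands count separately. The windows of PFKP, PGAM1 and SLC2A1, which were also called in mRNA against WT, hold 0 matches. NDRG1, called there too, had no listed window. Of the 33 members in the table, 21 (63.6%) held at least 1 match, against 43.1% of 27305 genes. Among members tested in RNA-seq, the 20 with a match had a median change of 0.030 in 4EHP-null and -0.025 in GIGYF1/2-null cells against WT. The 12 without one had medians of 0.019 and -0.058. A match is only a run of letters and does not show that the factor binds there.

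In WT cells GAPDH, LDHB, ENO1 and TPI1 had the highest mRNA levels per length among the members. GAPDH, the dehydrogenase of the glycolytic payoff phase, led with 2473 and 2649 TPM, a level corrected for gene length, in the 2 WT libraries, followed by the lactate dehydrogenase subunit LDHB (1578 and 1550.0 TPM), ENO1 (1339 and 1376 TPM) and TPI1 (1163 and 1327 TPM). ENO1 and TPI1, adjacent in this order, lay close, with the higher TPI1 library just under the lower ENO1 library. LDHA, PGAM1, PKM, ALDOA, PGK1 and GPI came next, in that order of mean TPM, down to 156 and 167 TPM for GPI. The second isozymes of enolase and aldolase stood far lower, ENO2 at 14.8 and 11.2 TPM and ALDOC at 9.27 and 9.26 TPM. The hexokinases HK1 and HK2 had 64.0 and 64.1 TPM and 29.2 and 27.9 TPM. Among the regulators and hypoxia targets, BNIP3 was highest at 105 and 98.9 TPM, and HIF1A, PFKFB3, EGLN1, NDRG1 and P4HA1 had WT means from 32.3 to 36.1 TPM and overlapping or nearly overlapping libraries. ANKRD37 (2.54 and 2.52 TPM), SLC16A3 (0.275 and 0.361 TPM) and CA9 were the lowest. CA9, a surface carbonic anhydrase induced strongly by hypoxia, had 0 to 2 counts in each RNA-seq library. All members together took 1.20 to 1.33% of the counts of an RNA-seq library and 1.35 to 1.58% of the counts of a Ribo-seq library. In RNA-seq the WT range, 1.24 to 1.33%, overlapped that of each knockout. The GIGYF1/2-null shares there, 1.20 to 1.25%, lay below the 4EHP-null shares, 1.27 to 1.29%. In Ribo-seq the GIGYF1/2-null shares, 1.35 to 1.43%, lay below those of WT, 1.55 to 1.58%. The 4EHP-null shares there were 1.43 and 1.56%. The lower of these was also below WT, close to the higher GIGYF1/2-null share, and the higher lay within the WT range.

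Footprints per mRNA (footprint CPM over mRNA CPM in the same genotype) were higher for most members than for the median gene in WT cells. The members' median ratio was 0.995 against 0.715 for all 13257 genes with both readouts, and 25 of 34 members lay above that median. By role the medians were 1.22 for lower glycolysis, 1.18 for the transporters, 1.03 for upper glycolysis, 0.847 for the enzymes of pyruvate fate, 0.820 for the hypoxia targets, 0.779 for oxygen sensing and 0.337 for the PFKFB enzymes. ALDOC had the highest ratio at 2.83 (2.49 to 3.18), where parentheses give the range over the 4 library combinations, and ENO2 followed at 2.67 (2.23 to 3.23). PFKFB3 had the lowest at 0.224 (0.212 to 0.239), below VEGFA at 0.250 (0.215 to 0.287) and EGLN1 at 0.307 (0.258 to 0.365), and the ranges of these last 3 adjoined or overlapped. A ratio of this kind also carries differences in how each assay covers a gene. Footprints of PGAM1 and TPI1 can be assigned to near-identical copies. The ratios of these genes (0.946 and 0.819) and the medians that hold them may therefore be too low.

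**Figure D1:**
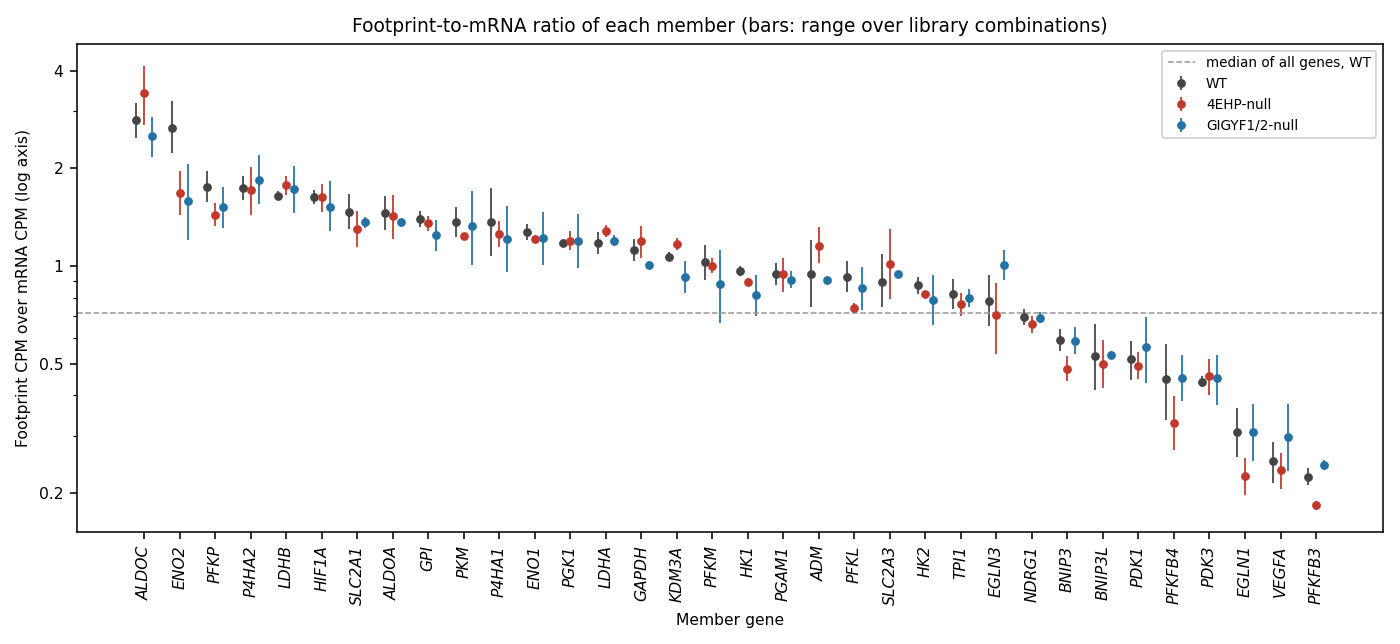
Footprint CPM over mRNA CPM (log axis) for each of the 34 members with both readouts, ordered by the WT value; points are ratios of genotype means and bars the range over library combinations, and the dashed line is the WT median of all genes (0.715). The WT point of ENO2 (2.67) lies above the ranges of both knockouts.

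Against WT, members were called at shares near those of all genes. In mRNA of 4EHP-null cells, PFKP and ENO2 rose and PGAM1 and BNIP3 fell, 4 of the 36 members tested (11.1%), where 13.1% of all 15637 genes were called (6.47% higher and 6.63% lower). In GIGYF1/2-null cells, ENO2 and NDRG1 rose and HK2, ENO1 and SLC2A1 fell, 5 of 36 (13.9%) against 11.9% of all genes (5.20% higher and 6.75% lower). Between the knockouts 13 of 36 (36.1%) were called, a larger share than the 24.4% of all genes (11.4% higher and 13.0% lower). PGAM1, NDRG1, BNIP3 and P4HA1 were higher in GIGYF1/2-null, and HK2, PFKL, PFKM, PFKP, PGK1, ENO1, SLC2A3, HIF1A and PFKFB4 were lower. The median change over the tested members was 0.050 in 4EHP-null and -0.0047 in GIGYF1/2-null cells against WT and -0.058 between the knockouts, beside -0.0030, 0.0052 and 0.0024 over all genes. These comparisons share libraries, so their values are not independent. CA9 was too low to test. Without the filter on low counts the mRNA calls against WT were 8 and 8, where 14.0% and 12.6% of all genes were called: SLC2A1, SLC2A3, PFKL and PFKFB4 were added in 4EHP-null and HIF1A, LDHB and PGK1 in GIGYF1/2-null. With the replicate number as a block they were 8 and 9, against 22.8% and 20.6% of all genes. The block added the same members as the missing filter, and BNIP3 in GIGYF1/2-null besides. Between the knockouts it added LDHB.

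In footprints, sequenced to a lower depth, the number of calls depended on the fit. With genotype alone in the fit, BNIP3 was the member called in 4EHP-null against WT (1 of 34 or 2.94%, with 3.04% of all 14722 genes called, 1.58% higher and 1.46% lower). HK2 was lower and NDRG1 higher in GIGYF1/2-null against WT (2 of 34 or 5.88%, against 2.09% of all genes, 0.727% higher and 1.36% lower). Between the knockouts NDRG1, BNIP3 and EGLN1 were higher and HK2 and HIF1A lower in GIGYF1/2-null (5 of 34 or 14.7%, against 10.8% of all genes, 3.98% higher and 6.80% lower). Members' median footprint changes were -0.018, -0.10 and -0.050, beside -0.0036, 0.0022 and 0.026 over all genes. SLC16A3, CA9 and ANKRD37 had at most 9 footprints in any library and were not tested. Deviations of same-numbered libraries correlated between genotypes by 0.15 to 0.31 in Ribo-seq and 0.070 to 0.18 in RNA-seq. This does not settle whether the numbers pair the libraries. With the replicate number as a block the footprint calls were 6, 6 and 14 of 34, against 12.4%, 11.9% and 22.4% of all genes. The block added ALDOC, SLC2A3, EGLN1, PGAM1 and SLC2A1 in 4EHP-null against WT, and EGLN3, ENO1, HIF1A and SLC2A1 in GIGYF1/2-null against WT. Between the knockouts it added ALDOC, EGLN3, ENO1, KDM3A, P4HA1, PFKM, PGAM1, PGK1 and SLC2A3. Without the filter on low counts there were 4, 4 and 10 calls, against 5.79%, 5.64% and 11.9% of all genes. The missing filter added EGLN1, PGAM1 and SLC2A3 in 4EHP-null against WT and EGLN3 and SLC2A1 in GIGYF1/2-null against WT. Between the knockouts it added ALDOC, KDM3A, PFKM, PGAM1 and SLC2A3. The tests below are from the fit with the filter and without the block. A call without the block means a call in that fit, and the block's adjusted p stands beside each result whose call it changed.

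These counts rest on 2 libraries a genotype and moved when 1 was left out. Of the 30 calls, 9 held in each of the 6 fits that left out a library of their assay, and 0 changed direction in any fit run. The 5 mRNA calls in GIGYF1/2-null against WT became 3 without WT replicate 2 or without GIGYF1/2-null replicate 2, and 9 without GIGYF1/2-null replicate 1. Between the knockouts the 13 mRNA calls became 8, 5 and 8 when the fit lacked 4EHP-null replicate 1, 4EHP-null replicate 2 or GIGYF1/2-null replicate 2. Beside single calls below, each adjusted p in parentheses is named by the library left out. In footprints, the 1 call of 4EHP-null against WT became 0 without WT replicate 1 or either 4EHP-null replicate, 2 without GIGYF1/2-null replicate 1 and 3 without GIGYF1/2-null replicate 2. The 2 footprint calls of GIGYF1/2-null against WT became 0 without either WT replicate and 1 without either 4EHP-null replicate or GIGYF1/2-null replicate 2. The 5 between the knockouts became 0 when the fit lacked 4EHP-null replicate 1 and 3 when it lacked the other.

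Libraries of 2 genotypes can also be set side by side with no test. In mRNA, both 4EHP-null libraries lay above both WT libraries for 16 of 36 members and below for 6, against 28.3% and 29.1% of all genes. Both GIGYF1/2-null libraries lay above WT for 7 and below for 9 (26.8% and 26.2% of all genes), and above 4EHP-null for 8 and below for 15 (31.7% and 30.7%). In footprints the members above and below were 9 and 10 of 34 for 4EHP-null against WT (24.9% and 26.8% of all genes), 5 and 15 for GIGYF1/2-null against WT (24.2% and 23.7%) and 7 and 12 between the knockouts (28.2% and 25.7%).

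**Figure D2:**
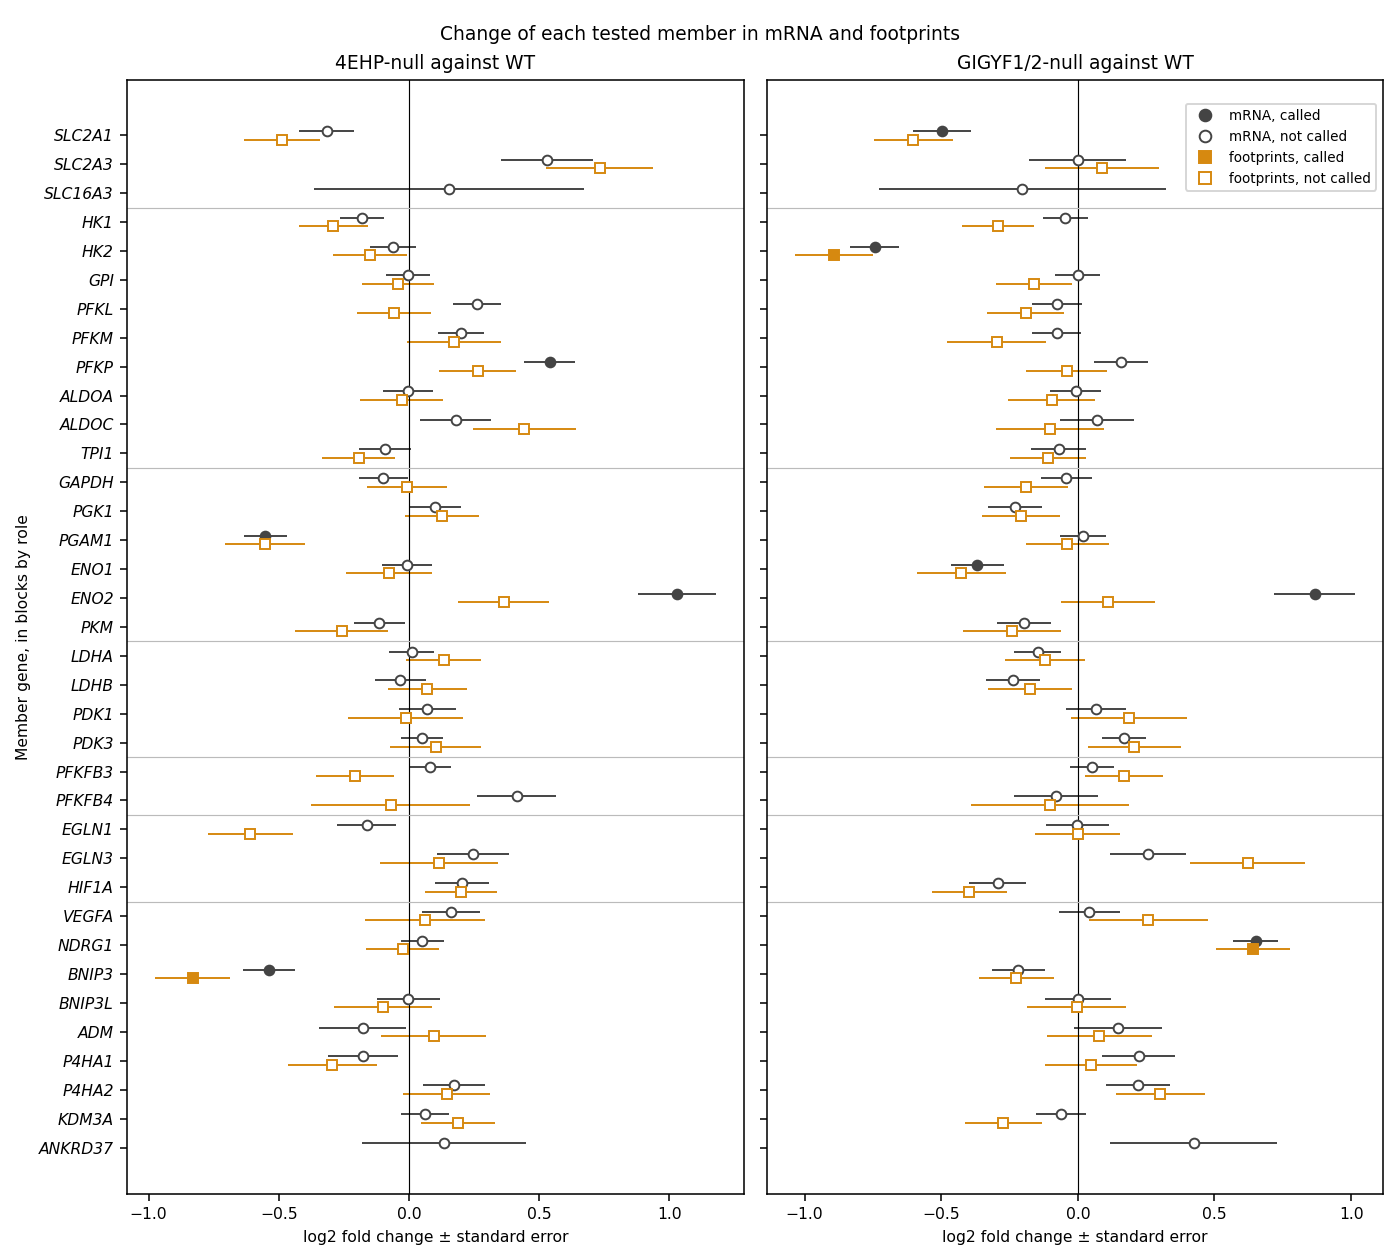
Log2 fold change ± standard error of every tested member against WT, in 4EHP-null (left) and GIGYF1/2-null cells (right), grouped by role; circles are mRNA, squares footprints, and filled symbols were called. Most symbols sit near 0, and ENO2, HK2, NDRG1, PGAM1 and BNIP3 lie farthest out among called members.

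Glucose enters through the SLC2A transporters. SLC2A1, the widely expressed glucose transporter GLUT1, had mRNA at 42.8 and 49.4 CPM in WT, 38.4 and 35.7 CPM in 4EHP-null and 32.9 and 32.5 CPM in GIGYF1/2-null libraries. Both knockouts lay below both WT libraries in mRNA and in footprints (64.2 and 71.2 CPM in WT, 43.9 and 52.7 in 4EHP-null and 46.1 and 43.3 in GIGYF1/2-null). In GIGYF1/2-null cells SLC2A1 mRNA fell, with a change of -0.50 ± 0.11 (edgeR adjusted p = 0.00888). That call ended when WT replicate 2 or GIGYF1/2-null replicate 2 was left out (adjusted p 0.109 for WT replicate 2, 0.0506 for GIGYF1/2-null replicate 2). Its other differences from WT did not pass the test: -0.32 ± 0.11 (edgeR adjusted p = 0.0674) for mRNA in 4EHP-null, and -0.49 ± 0.15 (edgeR adjusted p = 0.102) and -0.60 ± 0.14 (edgeR adjusted p = 0.0556) for footprints in 4EHP-null and GIGYF1/2-null. With the block the mRNA difference in 4EHP-null passed (edgeR adjusted p = 0.0160), and so did both footprint differences (0.00831 and 6.54e-04).

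SLC2A3 encodes GLUT3, a transporter of high glucose affinity best known from neurons, and was far less abundant. Its mRNA stood at 6.34 and 8.74 CPM in WT, 9.50 and 12.5 CPM in 4EHP-null and 7.69 and 7.46 CPM in GIGYF1/2-null libraries. Both 4EHP-null libraries were the highest, and the GIGYF1/2-null libraries lay within the WT range. Between the knockouts SLC2A3 mRNA was lower in GIGYF1/2-null, with a log2 change of -0.53 ± 0.18 (edgeR adjusted p = 0.0443), a call that ended under upper-quartile scaling (adjusted p = 0.0670), with DESeq2 (adjusted p = 0.0506) and in 3 fits without a library (adjusted p 0.313 for 4EHP-null replicate 2, 0.0742 for GIGYF1/2-null replicate 1, 0.140 for GIGYF1/2-null replicate 2). Against WT the 4EHP-null difference of 0.53 ± 0.18 (edgeR adjusted p = 0.0671) in mRNA and 0.73 ± 0.21 (edgeR adjusted p = 0.0842) in footprints did not pass. With the block both passed (edgeR adjusted p = 0.00717 in mRNA and 0.0142 in footprints), as did the footprint difference between the knockouts (0.0170). SLC16A3, the lactate exporter MCT4, stayed at or under 0.613 CPM in RNA-seq.

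Hexokinase traps glucose in the cell, and has 2 isozymes among the members, of which HK2 was called and HK1 was not. HK2, the isozyme typical of insulin-responsive and tumour tissue, had mRNA at 103 and 101 CPM in WT, 96.9 and 98.6 CPM in 4EHP-null and 65.7 and 55.9 CPM in GIGYF1/2-null libraries. Footprints on HK2 stood at 93.3 and 84.4 CPM in WT, 81.1 and 79.0 CPM in 4EHP-null and 52.6 and 43.3 CPM in GIGYF1/2-null libraries. In both readouts the GIGYF1/2-null libraries lay below the other 4, which lay close together. HK2 mRNA fell in GIGYF1/2-null cells, with a log2 change of -0.74 ± 0.089 (edgeR adjusted p = 2.47e-04, 95% interval -0.94 to -0.55), and so did its footprints, with -0.89 ± 0.14 (edgeR adjusted p = 0.0102, 95% interval -1.20 to -0.58). The mRNA call held in all 6 fits without a library, and the footprint call did not (adjusted p 0.0995 for WT replicate 1, 0.0543 for WT replicate 2). Against 4EHP-null the changes were -0.68 ± 0.09 (edgeR adjusted p = 1.93e-04) and -0.74 ± 0.14 (edgeR adjusted p = 0.00805), and the latter ended without 4EHP-null replicate 1 (adjusted p = 0.0674). In 4EHP-null cells HK2 differed from WT by -0.059 ± 0.088 (edgeR adjusted p = 0.718) in mRNA. HK1, the housekeeping isozyme, had mRNA at 144 and 148 CPM in WT, 132 and 126 CPM in 4EHP-null and 150.1 and 133 CPM in GIGYF1/2-null libraries, with changes of -0.18 ± 0.083 (edgeR adjusted p = 0.185) and -0.046 ± 0.083 (edgeR adjusted p = 0.790) against WT.

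Phosphofructokinase, which commits sugar to glycolysis, is built from PFKL, PFKM and PFKP subunits. PFKP mRNA stood at 70.0 and 86.3 CPM in WT, 111 and 116 CPM in 4EHP-null and 88.9 and 85.6 CPM in GIGYF1/2-null libraries. Both 4EHP-null libraries were above the other 4, and PFKP rose against WT by 0.54 ± 0.098 (edgeR adjusted p = 0.00356, 95% interval 0.33 to 0.75). This call ended without WT replicate 1 (adjusted p = 0.0501). PFKP footprints stood at 138 and 136 CPM in WT, 154 and 174 CPM in 4EHP-null and 149.8 and 116 CPM in GIGYF1/2-null libraries, and their difference in 4EHP-null cells, 0.26 ± 0.15 (edgeR adjusted p = 0.359), did not pass. Levels of PFKL mRNA were 80.2 and 92.7 CPM in WT, 105 and 103 CPM in 4EHP-null and 86.3 and 77.8 CPM in GIGYF1/2-null libraries, and those of PFKM 67.7 and 73.6 CPM in WT, 79.4 and 83.2 CPM in 4EHP-null and 71.0 and 63.0 CPM in GIGYF1/2-null libraries. For all 3 subunits both 4EHP-null libraries held the highest values. The differences between 4EHP-null and WT, 0.26 ± 0.091 (edgeR adjusted p = 0.0792) for PFKL and 0.20 ± 0.089 (edgeR adjusted p = 0.164) for PFKM, did not pass. With the block that of PFKL passed (edgeR adjusted p = 0.0219).

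Between the knockouts all 3 subunit mRNAs were lower in GIGYF1/2-null, with log2 changes of -0.38 ± 0.098 (edgeR adjusted p = 0.0128) for PFKP, -0.34 ± 0.091 (edgeR adjusted p = 0.0175) for PFKL and -0.28 ± 0.089 (edgeR adjusted p = 0.0377) for PFKM. For PFKP this call ended without 4EHP-null replicate 2 (adjusted p = 0.0834), and for PFKL in 3 fits (adjusted p 0.0941 for 4EHP-null replicate 1, 0.0709 for 4EHP-null replicate 2, 0.0990 for GIGYF1/2-null replicate 2). The PFKM call ended in 5 of the 6 fits (adjusted p 0.0551 for WT replicate 1, 0.0556 for WT replicate 2, 0.0966 for 4EHP-null replicate 1, 0.194 for 4EHP-null replicate 2, 0.216 for GIGYF1/2-null replicate 2), under upper-quartile scaling (adjusted p = 0.0797) and with only these 2 genotypes in the fit (adjusted p = 0.0664). In footprints 0 of the 3 were called with the filter and without the block. PFKM was called lower in GIGYF1/2-null than in 4EHP-null with the block (edgeR adjusted p = 0.00309) and without the filter (0.0346). The remaining enzymes of the upper part, GPI, ALDOA, ALDOC and TPI1, were called in no comparison with the filter and without the block. Their mRNA changes against WT lay between -0.091 (TPI1, 4EHP-null) and 0.18 (ALDOC, 4EHP-null). ALDOC footprints stood at 19.4 and 24.1 CPM in WT, 24.6 and 34.9 CPM in 4EHP-null and 18.1 and 22.6 CPM in GIGYF1/2-null libraries. With the block they were called higher in 4EHP-null than in WT (edgeR adjusted p = 0.0331) and lower in GIGYF1/2-null than in 4EHP-null (0.00358). The difference between the knockouts was also called without the filter (edgeR adjusted p = 0.0159).

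**Figure D3:**
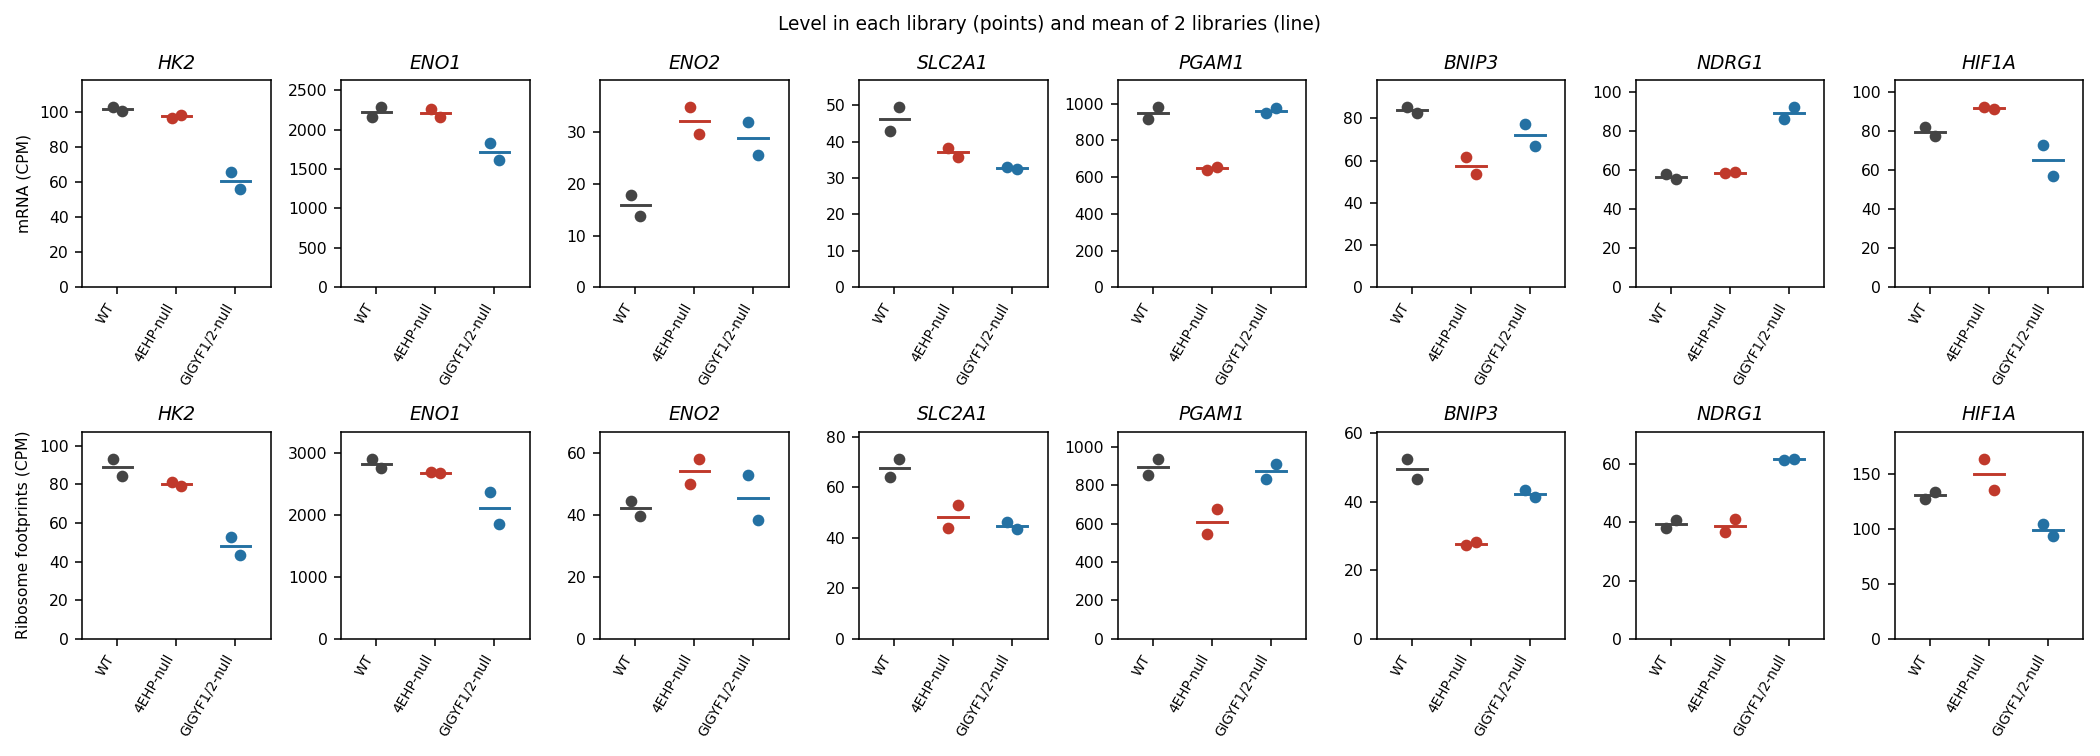
CPM of 8 members that were called in at least 1 comparison, in RNA-seq (top) and Ribo-seq (bottom); each point is a library and each line the mean of 2, with axes from 0. HK2 is low in GIGYF1/2-null and PGAM1 and BNIP3 in 4EHP-null in both rows, while ENO2 mRNA is high in both knockouts and its footprints in GIGYF1/2-null overlap those of WT.

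PGAM1, the phosphoglycerate mutase of most tissues, was lower in 4EHP-null cells. Its mRNA stood at 917 and 979.6 CPM in WT, 638 and 656 CPM in 4EHP-null and 946 and 975 CPM in GIGYF1/2-null libraries. The 4EHP-null libraries lay far below the other 4, which overlapped. The change against WT was -0.55 ± 0.084 (edgeR adjusted p = 0.00130, 95% interval -0.73 to -0.37), and GIGYF1/2-null was higher than 4EHP-null by 0.57 ± 0.084 (edgeR adjusted p = 4.44e-04). Both mRNA calls held in all 6 fits without a library. Footprints were also lowest in 4EHP-null, at 854 and 939.7 CPM in WT, 547 and 675 CPM in 4EHP-null and 835 and 912 CPM in GIGYF1/2-null libraries. Their differences of -0.55 ± 0.15 (edgeR adjusted p = 0.0825) for 4EHP-null against WT and 0.51 ± 0.15 (edgeR adjusted p = 0.0523) between the knockouts did not pass without the block and passed with it (edgeR adjusted p = 9.24e-04 and 9.68e-04). PGAM4 is a near-identical copy with 2 to 35 RNA-seq counts a library but 1885 to 5318 footprints, and the pseudogene PGAM1P5 had 0 RNA-seq counts and 723 to 2205 footprints. Short footprints from PGAM1 can be assigned to such copies, so the PGAM1 footprint level is uncertain; with the 3 genes summed, the number of members called stayed as it was in each of the 9 comparisons.

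Enolase makes phosphoenolpyruvate, and the mRNAs of its ubiquitous and neuron-typical isozymes moved in opposite directions in GIGYF1/2-null cells. ENO1, the ubiquitous form, had mRNA at 2159 and 2284 CPM in WT, 2263 and 2156 CPM in 4EHP-null and 1830.2 and 1615 CPM in GIGYF1/2-null libraries. Both GIGYF1/2-null libraries were below the rest, with a change of -0.37 ± 0.096 (edgeR adjusted p = 0.0259, 95% interval -0.57 to -0.16) against WT and -0.36 ± 0.096 (edgeR adjusted p = 0.0163) against 4EHP-null. The call against WT ended in 3 fits (adjusted p 0.109 for WT replicate 1, 0.185 for WT replicate 2, 0.0936 for GIGYF1/2-null replicate 2) and that against 4EHP-null in 2 (adjusted p 0.0784 for 4EHP-null replicate 1, 0.0666 for GIGYF1/2-null replicate 2). ENO1 footprints, at 2907 and 2749.7 CPM in WT, 2686 and 2679 CPM in 4EHP-null and 2365 and 1845 CPM in GIGYF1/2-null libraries, differed by a log2 value of -0.43 ± 0.16 (edgeR adjusted p = 0.202) in GIGYF1/2-null cells, which did not pass without the block and passed with it (edgeR adjusted p = 0.0179), as did the difference from 4EHP-null (0.0366).

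ENO2, the isozyme typical of neurons, had mRNA at 17.8 and 13.8 CPM in WT, 34.7 and 29.6 CPM in 4EHP-null and 32.0 and 25.6 CPM in GIGYF1/2-null libraries. Every knockout library was above both WT libraries. The changes were 1.03 ± 0.15 (edgeR adjusted p = 9.49e-04, 95% interval 0.71 to 1.35) in 4EHP-null and 0.87 ± 0.15 (edgeR adjusted p = 0.00239, 95% interval 0.54 to 1.19) in GIGYF1/2-null cells, the largest increases among the tested members in each, and both calls held in all 6 fits without a library. The 2 comparisons share the WT libraries. Its footprints, at 44.8 and 39.7 CPM in WT, 50.1 and 58.3 CPM in 4EHP-null and 53.0 and 38.4 CPM in GIGYF1/2-null libraries, were above WT in both 4EHP-null libraries and overlapped WT in GIGYF1/2-null. Their differences of 0.36 ± 0.17 (edgeR adjusted p = 0.286) and 0.11 ± 0.17 (edgeR adjusted p = 0.792) did not pass. The footprint-to-mRNA ratio of ENO2 was 2.67 (2.23 to 3.23) in WT, 1.68 (1.44 to 1.97) in 4EHP-null and 1.59 (1.20 to 2.07) in GIGYF1/2-null.

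PGK1, which makes ATP from its bisphosphoglycerate substrate, was lower in GIGYF1/2-null than in 4EHP-null mRNA. Its levels were 474 and 486 CPM in WT, 499 and 531 CPM in 4EHP-null and 450.0 and 369 CPM in GIGYF1/2-null libraries, with a change of -0.33 ± 0.098 (edgeR adjusted p = 0.0274) between the knockouts that ended in 3 fits (adjusted p 0.0613 for 4EHP-null replicate 1, 0.158 for 4EHP-null replicate 2, 0.159 for GIGYF1/2-null replicate 2). PGK1 footprints were called lower in the same comparison with the block only (edgeR adjusted p = 0.0375). With the block PGK1 mRNA was also called lower in GIGYF1/2-null than in WT (edgeR adjusted p = 0.0402). GAPDH and PKM, the pyruvate kinase gene, were called in no comparison. GAPDH mRNA stood at 2319.9 and 2557 CPM in WT, 2194 and 2362 CPM in 4EHP-null and 2342 and 2393 CPM in GIGYF1/2-null libraries, with changes against WT of -0.098 ± 0.094 and -0.043 ± 0.094. The lactate dehydrogenase subunits LDHA and LDHB and the pyruvate dehydrogenase kinases PDK1 and PDK3, which divert pyruvate from mitochondria, were also called in no comparison with the filter and without the block. Of these 4, LDHB in GIGYF1/2-null mRNA had the largest difference from WT, at -0.24 ± 0.098 (edgeR adjusted p = 0.149). It passed with the block (edgeR adjusted p = 0.0323) and without the filter (0.0284). With the block LDHB mRNA was also called lower in GIGYF1/2-null than in 4EHP-null (edgeR adjusted p = 0.0447).

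The PFKFB enzymes set the level of the sugar bisphosphate that activates phosphofructokinase. PFKFB4 mRNA was low, at 7.90 and 8.66 CPM in WT, 9.93 and 12.2 CPM in 4EHP-null and 7.12 and 8.54 CPM in GIGYF1/2-null libraries, and lower in GIGYF1/2-null than in 4EHP-null, with a log2 change of -0.50 ± 0.15 (edgeR adjusted p = 0.0323). This call ended under upper-quartile scaling (adjusted p = 0.0545) and in 2 fits (adjusted p 0.240 for 4EHP-null replicate 2, 0.142 for GIGYF1/2-null replicate 1). With the block PFKFB4 mRNA was also called higher in 4EHP-null than in WT, with a log2 change of 0.42 (edgeR adjusted p = 0.0223). PFKFB3 was called in no comparison, with mRNA changes of 0.083 ± 0.081 and 0.05 ± 0.08 against WT.

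HIF1A encodes the oxygen-regulated subunit of the hypoxia factor, whose protein level and activity were not measured. Its mRNA stood at 82.0 and 77.5 CPM in WT, 92.4 and 91.3 CPM in 4EHP-null and 73.0 and 57.2 CPM in GIGYF1/2-null libraries, highest in 4EHP-null and lowest in GIGYF1/2-null with no overlap. Footprints followed the same order of means, at 127 and 133 CPM in WT, 164 and 136 CPM in 4EHP-null and 104 and 93.7 CPM in GIGYF1/2-null libraries. Against WT the mRNA differences of 0.20 ± 0.10 (edgeR adjusted p = 0.232) in 4EHP-null and -0.29 ± 0.11 (edgeR adjusted p = 0.0953) in GIGYF1/2-null did not pass. Between the knockouts HIF1A was lower in GIGYF1/2-null, with log2 changes of -0.50 ± 0.11 (edgeR adjusted p = 0.00466, 95% interval -0.73 to -0.27) in mRNA and -0.60 ± 0.14 (edgeR adjusted p = 0.0191) in footprints. The mRNA call held in all 6 fits without a library, and the footprint call ended in 2 (adjusted p 0.170 for 4EHP-null replicate 1, 0.0824 for GIGYF1/2-null replicate 2). With the block HIF1A was also called lower in GIGYF1/2-null than in WT, in mRNA (edgeR adjusted p = 0.0105) and in footprints (0.0171). An antisense gene, HIF1A-AS2, lies over HIF1A and had 437 to 835 RNA-seq counts a library. The sources used here give no strand setting for the counting, so reads of the pair cannot be told apart with certainty.

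EGLN1 is the main prolyl hydroxylase that marks HIF-1α. Its footprints stood at 41.1 and 34.7 CPM in WT, 26.6 and 23.0 CPM in 4EHP-null and 41.5 and 34.3 CPM in GIGYF1/2-null libraries, with both 4EHP-null libraries below the other 4, while its mRNA overlapped between genotypes at 134 and 113 CPM in WT, 117 and 104 CPM in 4EHP-null and 137 and 110.1 CPM in GIGYF1/2-null libraries. In footprints GIGYF1/2-null was higher than 4EHP-null by 0.61 ± 0.16 (edgeR adjusted p = 0.0346). That call ended with DESeq2 (adjusted p = 0.0717), with only these 2 genotypes in the fit (adjusted p = 0.0520) and in 4 fits without a library (adjusted p 0.0526 for WT replicate 1, 0.114 for 4EHP-null replicate 1, 0.220 for 4EHP-null replicate 2, 0.148 for GIGYF1/2-null replicate 1). With the block EGLN1 footprints were called lower in 4EHP-null than in WT (edgeR adjusted p = 0.00184). EGLN3, a hydroxylase that is itself a hypoxia target, was called in no comparison with the filter and without the block. Its footprints in GIGYF1/2-null cells (15.8 and 14.8 CPM against 9.27 and 10.4 CPM in WT) differed by a log2 value of 0.62 ± 0.21 (edgeR adjusted p = 0.151), which passed with the block (edgeR adjusted p = 0.0146), as did the difference from 4EHP-null (0.0410). Without the filter the difference from WT passed too (edgeR adjusted p = 0.0326).

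Among the hypoxia targets, without the block NDRG1 was called against WT in GIGYF1/2-null cells and BNIP3 in 4EHP-null cells. NDRG1, a stress and differentiation gene induced by hypoxia, had mRNA at 58.0 and 55.2 CPM in WT, 58.3 and 59.0 CPM in 4EHP-null and 85.8 and 92.0 CPM in GIGYF1/2-null libraries and footprints at 38.1 and 40.9 CPM in WT, 36.7 and 41.0 CPM in 4EHP-null and 61.4 and 61.9 CPM in GIGYF1/2-null libraries. In both readouts the GIGYF1/2-null libraries stood above the other 4. NDRG1 rose in GIGYF1/2-null cells by 0.65 ± 0.082 (edgeR adjusted p = 3.56e-04, 95% interval 0.47 to 0.83) in mRNA and 0.64 ± 0.14 (edgeR adjusted p = 0.0349, 95% interval 0.34 to 0.94) in footprints. Against 4EHP-null the changes were 0.60 ± 0.082 (edgeR adjusted p = 2.68e-04) and 0.66 ± 0.14 (edgeR adjusted p = 0.0111). Both mRNA calls held in all 6 fits without a library. The footprint call against WT ended in 5 of 6 fits (adjusted p 0.225 for WT replicate 1, 0.179 for WT replicate 2, 0.0632 for 4EHP-null replicate 1, 0.0585 for 4EHP-null replicate 2, 0.0875 for GIGYF1/2-null replicate 2) and with only these 2 genotypes in the fit (adjusted p = 0.0549), and that against 4EHP-null ended without 4EHP-null replicate 1 (adjusted p = 0.118).

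BNIP3, a mitochondrial outer-membrane receptor for mitophagy, had mRNA at 85.3 and 82.4 CPM in WT, 61.9 and 53.5 CPM in 4EHP-null and 77.5 and 66.8 CPM in GIGYF1/2-null libraries and footprints at 52.6 and 46.5 CPM in WT, 27.4 and 28.2 CPM in 4EHP-null and 43.3 and 41.4 CPM in GIGYF1/2-null libraries. The 4EHP-null libraries were the lowest in both readouts. BNIP3 fell against WT, with log2 changes of -0.54 ± 0.099 (edgeR adjusted p = 0.00388, 95% interval -0.75 to -0.32) in mRNA and -0.83 ± 0.14 (edgeR adjusted p = 0.0104, 95% interval -1.14 to -0.52) in footprints. The mRNA call ended without 4EHP-null replicate 2 (adjusted p = 0.0624), and the footprint call in 3 fits (adjusted p 0.105 for WT replicate 1, 0.109 for 4EHP-null replicate 1, 0.0788 for 4EHP-null replicate 2). Against 4EHP-null, GIGYF1/2-null was higher by 0.32 ± 0.099 (edgeR adjusted p = 0.0327) in mRNA and 0.61 ± 0.14 (edgeR adjusted p = 0.0201) in footprints. Of these, the mRNA call ended in 4 fits without a library (adjusted p 0.0582 for WT replicate 1, 0.0577 for WT replicate 2, 0.294 for 4EHP-null replicate 2, 0.203 for GIGYF1/2-null replicate 1) and with only these 2 genotypes in the fit (adjusted p = 0.0678), and the footprint call in 3 (adjusted p 0.140 for 4EHP-null replicate 1, 0.0969 for 4EHP-null replicate 2, 0.0526 for GIGYF1/2-null replicate 1). Both GIGYF1/2-null libraries also lay below both WT libraries in each readout. That mRNA difference did not pass without the block (edgeR adjusted p = 0.187). With the block it passed, with a log2 change of -0.22 (edgeR adjusted p = 0.0422). BNIP3L, a relative of BNIP3, was called in no comparison, with mRNA changes of -0.0023 ± 0.12 and 0.00011 ± 0.12 against WT.

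P4HA1, a subunit of the collagen prolyl hydroxylase, had mRNA at 55.1 and 42.6 CPM in WT, 43.2 and 43.2 CPM in 4EHP-null and 63.5 and 50.3 CPM in GIGYF1/2-null libraries and was higher in GIGYF1/2-null than in 4EHP-null by 0.40 ± 0.13 (edgeR adjusted p = 0.0451). The call ended in 3 fits (adjusted p 0.150 for 4EHP-null replicate 1, 0.155 for 4EHP-null replicate 2, 0.320 for GIGYF1/2-null replicate 1). VEGFA, the angiogenic growth factor, ADM, the vasodilator peptide adrenomedullin, P4HA2, the histone demethylase KDM3A and ANKRD37 were called in no comparison with the filter and without the block. With the block, footprints of P4HA1 were called higher (edgeR adjusted p = 0.0459) and those of KDM3A lower (0.00621) in GIGYF1/2-null than in 4EHP-null. Without the filter KDM3A footprints were called lower there too (edgeR adjusted p = 0.0452). VEGFA mRNA stood at 35.8 and 34.7 CPM in WT, 39.1 and 39.7 CPM in 4EHP-null and 32.7 and 39.8 CPM in GIGYF1/2-null libraries, with changes against WT of 0.16 ± 0.11 and 0.042 ± 0.11. Those of P4HA2, KDM3A, ADM and ANKRD37 lay between -0.18 (ADM, 4EHP-null) and 0.42 (ANKRD37, GIGYF1/2-null).

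No member's translation efficiency (TE, the footprint change minus the mRNA change) was called. The counts were 0 of 34 in 4EHP-null against WT, 0 of 34 in GIGYF1/2-null against WT and 0 of 34 between the knockouts in edgeR, where 0.0905%, 0.0453% and 0.181% of all 13257 genes were called; by direction the shares were 0.0830% higher and 0.00754% lower, 0.0377% and 0.00754%, and 0.0453% and 0.136%. DESeq2 also called 0 in each, and 1, 1 and 2 members had an unadjusted p under 0.05 in edgeR. ENO2 was the member with the smallest unadjusted p in both comparisons with WT. Its TE change was -0.66 ± 0.24 in 4EHP-null (95% interval -1.18 to -0.14, unadjusted p = 0.0156, edgeR adjusted p = 0.510) and -0.76 ± 0.24 in GIGYF1/2-null cells (95% interval -1.27 to -0.24, unadjusted p = 0.00697, edgeR adjusted p = 0.774). For HK2 the TE change in GIGYF1/2-null cells was -0.15 ± 0.16 (95% interval -0.49 to 0.19), and for NDRG1 -0.012 ± 0.14 (-0.31 to 0.29), so changes in TE of the size of their mRNA changes lay outside these intervals. EGLN1 in 4EHP-null had -0.44 ± 0.21 (95% interval -0.90 to 0.0092, edgeR adjusted p = 0.664). Between the knockouts, PFKFB3 (0.41 ± 0.15, unadjusted p = 0.0164) and KDM3A (-0.34 ± 0.15, unadjusted p = 0.0398) had the smallest unadjusted p.

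**Figure D4:**
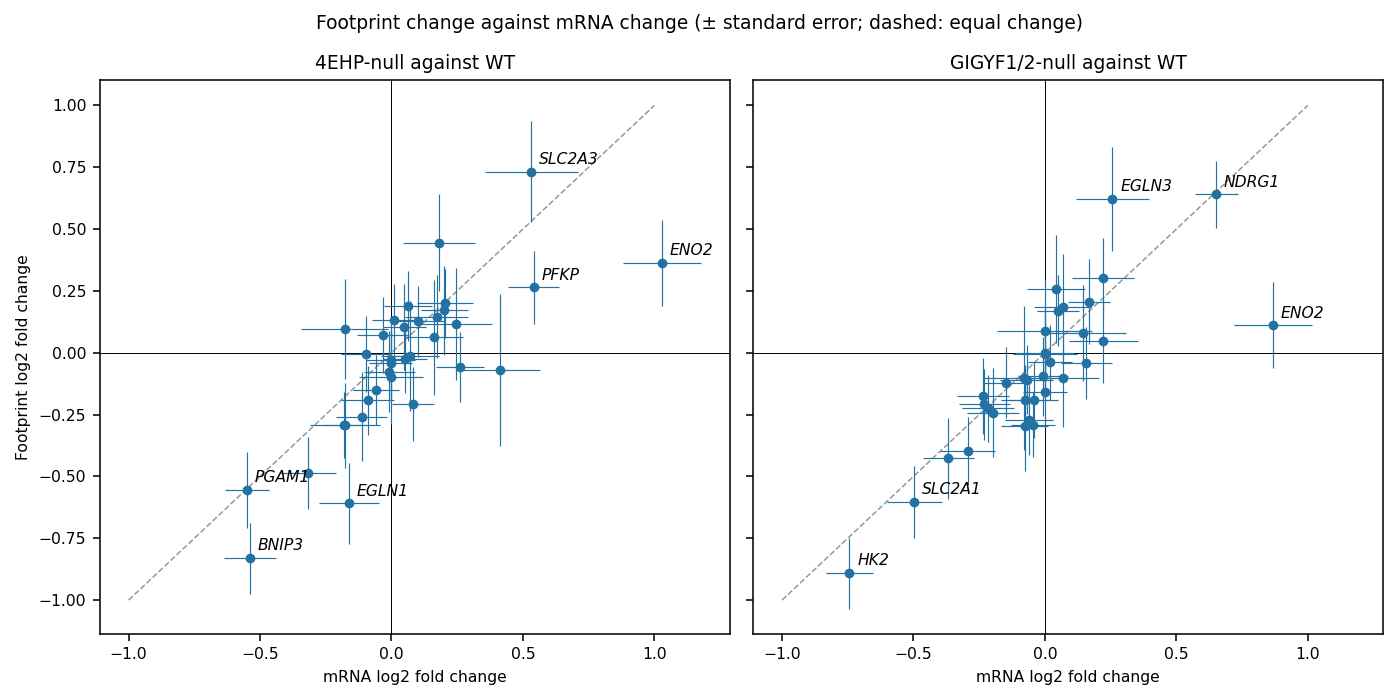
Footprint change against mRNA change (log2, ± standard error) for the 34 members with both readouts in 4EHP-null (left) and GIGYF1/2-null cells (right), each against WT; the dashed line marks equal change. HK2 and NDRG1 lie near the line, and ENO2 lies below it in both panels.

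PGAM1 and BNIP3, the members called lower in 4EHP-null mRNA, lie among chromosomal neighbours with lower mRNA. For each member the median mRNA change of up to 24 nearest tested genes, 12 on each side in RefSeq order, was set beside its own. In 4EHP-null against WT that median was beyond 0.2 in size for 6 of 36 members, all negative: BNIP3, PGAM1, HK1 and P4HA1 on chromosome 10, PKM on chromosome 15 and EGLN1 on chromosome 1. The neighbours of PGAM1 had a median of -0.45, with 14 of 24 called lower and 1 higher, beside its own -0.55. Around BNIP3 the median was -0.55, with 12 of 24 called lower, beside -0.54. HK1, PKM, EGLN1 and P4HA1 had neighbour medians of -0.32, -0.32, -0.22 and -0.37 and own changes of -0.18, -0.11, -0.16 and -0.18, of which 0 passed the test. In footprints of 4EHP-null against WT the neighbours of EGLN1 had a median of -0.28 beside its own -0.61. Those of BNIP3 had -0.57 beside -0.83, and those of PGAM1 -0.47 beside -0.55. The part of the regions in the changes of PGAM1, BNIP3 and EGLN1 was not tested.

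The same regions entered the comparison between the knockouts, where BNIP3, PGAM1 and P4HA1, 3 of the 4 members higher in GIGYF1/2-null, had neighbour medians of 0.47, 0.48 and 0.40. For ENO2 (neighbour median -0.013) and PFKP (0.036, over 21 genes), the members that rose in 4EHP-null cells, the neighbour medians were near 0. In GIGYF1/2-null against WT no member had a neighbour median beyond 0.2. The medians were 0.15 for HK2, 0.059 for ENO1, 0.039 for SLC2A1, 0.036 for NDRG1 and 0.045 for ENO2, so the neighbours of the called members lay near or slightly above 0 whichever way the member moved. With the members of moving neighbourhoods set aside, 2 mRNA calls remained in 4EHP-null, 5 in GIGYF1/2-null and 10 between the knockouts.

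**Figure D5:**
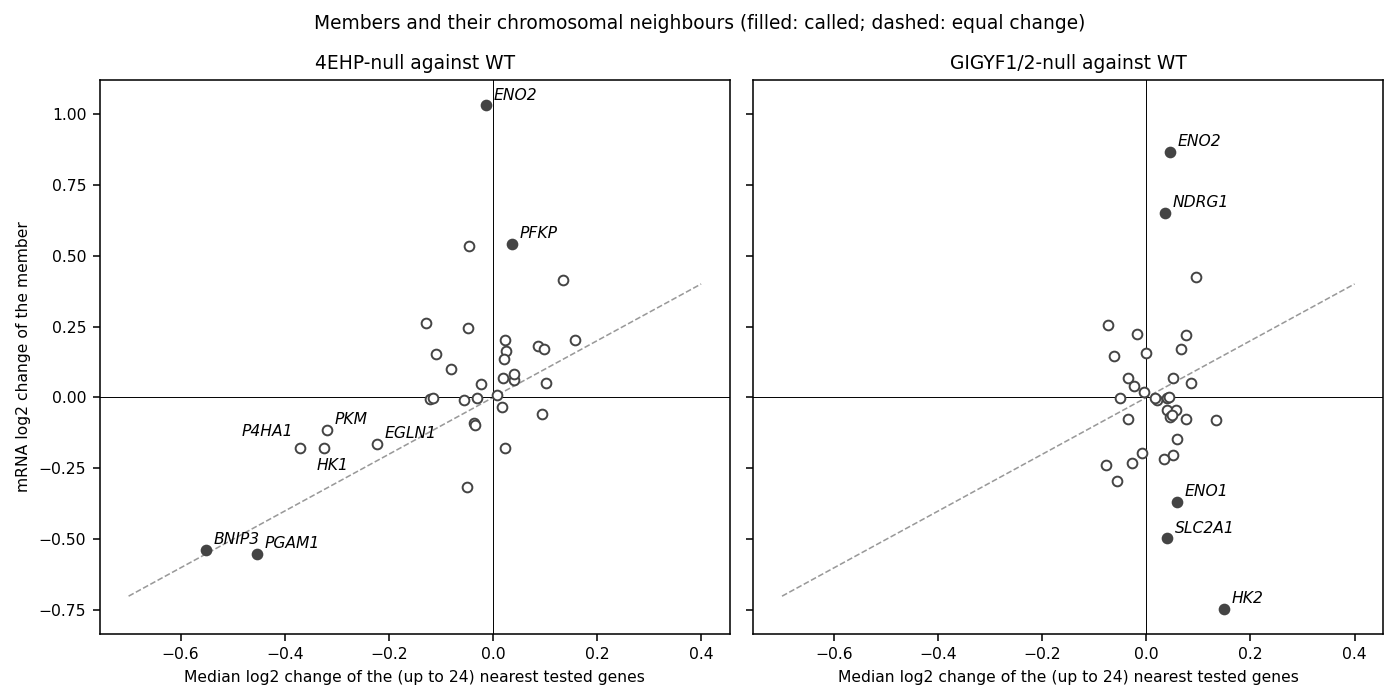
mRNA log2 change of each member (vertical) against the median change of up to 24 nearest tested genes (horizontal), in 4EHP-null (left) and GIGYF1/2-null cells (right) against WT; filled points were called and the dashed line marks equal change. PGAM1 and BNIP3 lie on or near the line at the lower left, and ENO2, PFKP, HK2 and NDRG1 lie far from it with neighbours near 0.

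Other genes of the same pathways came from lists that exclude the 37. Of 46 other glycolysis and pyruvate genes tested in RNA-seq, 7 rose and 3 fell in 4EHP-null cells and 1 rose and 4 fell in GIGYF1/2-null cells against WT, with medians of 0.015 and -0.018, where 6.47% and 6.63% of all genes rose and fell in 4EHP-null and 5.20% and 6.75% in GIGYF1/2-null. In 4EHP-null cells GPD2, the mitochondrial glycerol phosphate dehydrogenase, rose by 0.51 ± 0.095 (edgeR adjusted p = 0.00444) and PCK2, the mitochondrial PEP carboxykinase, by 0.46 ± 0.11 (edgeR adjusted p = 0.0141). Among the 3 that fell there was MPC1, a subunit of the mitochondrial pyruvate carrier, with a log2 change of -0.30 (edgeR adjusted p = 0.0313). That call did not hold in every fit without a library. The fits and neighbours given for MPC1 below are those of GIGYF1/2-null cells. In GIGYF1/2-null cells MPC1 fell too, with a log2 change of -0.52 ± 0.083 (edgeR adjusted p = 0.00153), as did DLD, the dihydrolipoamide dehydrogenase of the pyruvate dehydrogenase complex, with -0.55 ± 0.099 (edgeR adjusted p = 0.00333). The monocarboxylate transporter SLC16A7 rose by 1.02 ± 0.21 (edgeR adjusted p = 0.00747). Between the knockouts 4 of the 46 were higher and 8 lower in GIGYF1/2-null, against 11.4% and 13.0% of all genes. The GPD2 call ended in 1 fit without a library (adjusted p 0.0534 for 4EHP-null replicate 2), that of PCK2 in 3 (adjusted p 0.0662 for WT replicate 1, 0.104 for WT replicate 2, 0.109 for 4EHP-null replicate 2) and that of SLC16A7 in 2 (adjusted p 0.0825 for WT replicate 2, 0.0532 for GIGYF1/2-null replicate 1), while those of MPC1 and DLD held in all 6. Neighbour medians were -0.35 for MPC1 and -0.63 for DLD, and of the 5 genes called in GIGYF1/2-null against WT 3 (BPGM, DLD and MPC1) lay among neighbours that had moved.

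Of 23 regulators of HIF tested in RNA-seq, 0 rose and 2 fell in each knockout, where 13.1% of all genes were called in 4EHP-null and 11.9% in GIGYF1/2-null. In 4EHP-null cells HIF1AN, the asparaginyl hydroxylase that blocks HIF coactivator binding, changed by -0.34 ± 0.079 (edgeR adjusted p = 0.0132) among neighbours with a median of -0.39, and EPAS1, the HIF-2α gene, by -0.45 ± 0.12 (edgeR adjusted p = 0.0257). In GIGYF1/2-null cells OS9, a lectin of the endoplasmic reticulum, changed by -0.85 ± 0.077 (edgeR adjusted p = 3.79e-05). CITED2, a competitor of HIF for its coactivators, changed there by -0.58 ± 0.14 (edgeR adjusted p = 0.0165) among neighbours with a median of -0.42. Between the knockouts 2 of the 23 were higher and 4 lower in GIGYF1/2-null, against 24.4% of all genes called. The OS9 call held in all 6 fits without a library. Those of HIF1AN ended in 2 fits (adjusted p 0.119 for WT replicate 2, 0.153 for 4EHP-null replicate 2), of EPAS1 in 4 (adjusted p 0.0786 for WT replicate 1, 0.133 for WT replicate 2, 0.187 for 4EHP-null replicate 1, 0.0622 for 4EHP-null replicate 2) and of CITED2 in 3 (adjusted p 0.103 for WT replicate 1, 0.0578 for WT replicate 2, 0.121 for GIGYF1/2-null replicate 2). OS9 mRNA stood at 128 and 134 CPM in WT, 127 and 122 CPM in 4EHP-null and 72.2 and 73.0 CPM in GIGYF1/2-null libraries, with both GIGYF1/2-null libraries far below the other 4.

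Of 50 other HIF target genes tested, 4 rose and 1 fell in 4EHP-null and 5 rose and 4 fell in GIGYF1/2-null cells against WT, with medians of 0.021 and -0.080, beside the shares of all genes of 6.47% and 6.63%, and 5.20% and 6.75%. HMOX1, heme oxygenase 1, which many stresses induce, rose in GIGYF1/2-null cells from 31.6 and 38.5 CPM in WT to 113 and 132 CPM, a change of 1.81 ± 0.12 (edgeR adjusted p = 5.74e-06). LOX, the collagen crosslinking enzyme lysyl oxidase, rose there by 1.43 ± 0.12 (edgeR adjusted p = 3.23e-05). It also rose in 4EHP-null cells, by 0.46 (edgeR adjusted p = 0.0335), a call that did not hold in every fit without a library. Fibroblast markers summed to 12.2 to 12.6 CPM in GIGYF1/2-null and 7.21 to 9.07 CPM in 4EHP-null libraries, and their part in the LOX changes was not tested. The fits given for LOX below are those of GIGYF1/2-null cells. NAMPT, of NAD synthesis, and GYS1, the glycogen synthase of muscle and most tissues, fell in GIGYF1/2-null cells. Their log2 changes were -0.76 ± 0.079 (edgeR adjusted p = 9.47e-05) and -0.58 ± 0.091 (edgeR adjusted p = 0.00148), with neighbour medians of -0.61 and 0.082. In 4EHP-null cells BHLHE40, a transcriptional repressor, rose by 0.76 ± 0.12 (edgeR adjusted p = 0.00156). Of the 5 genes of the MondoA glucose response, MLXIP, which encodes MondoA, rose in 4EHP-null cells by 0.53 ± 0.075 (edgeR adjusted p = 7.82e-04) among neighbours with a median of 0.32. Its target TXNIP, an inhibitor of glucose uptake, fell in GIGYF1/2-null cells, with a log2 change of -0.55 ± 0.15 (edgeR adjusted p = 0.0343). That call ended with DESeq2 (adjusted p = 0.0508) and in 4 fits without a library (adjusted p 0.0709 for WT replicate 1, 0.204 for WT replicate 2, 0.0671 for GIGYF1/2-null replicate 1, 0.119 for GIGYF1/2-null replicate 2), while those of HMOX1, LOX, NAMPT, GYS1, BHLHE40 and MLXIP held in all 6. Between the knockouts 6 of the 50 other HIF targets were higher and 12 lower in GIGYF1/2-null, against 11.4% and 13.0% of all genes.

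The authors' deposited tables, which compare each knockout with WT, list 35 members for RNA-seq, 33 for Ribo-seq and 33 for TE. At an adjusted p under 0.05 the authors' deposited tables call 6 members in mRNA of 4EHP-null cells (BNIP3, ENO2, PFKP, PGAM1, SLC2A1 and SLC2A3), where they call 19.9% of all genes listed, and 5 in GIGYF1/2-null cells (ENO1, ENO2, HK2, NDRG1 and SLC2A1), where they call 17.6%. In footprints the authors' deposited tables call BNIP3, EGLN1, PGAM1 and SLC2A3 in 4EHP-null and EGLN3, HK2, NDRG1 and SLC2A1 in GIGYF1/2-null cells, with 6.02% and 5.84% of all genes listed. For TE the authors' deposited tables call 0 members in either knockout. The authors' deposited table gives HK2 a log2 mRNA change of -0.73 in GIGYF1/2-null cells and ENO2 1.02 in 4EHP-null cells.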

How the data were processed

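RNA-seq and Ribo-seq libraries of HEK293T cells were taken as deposited raw counts per gene symbol, with no normalization by the authors. Per the submitters' processing notes Bowtie2, TopHat2, edgeR and build hg19 were used; for counting tool, annotation, strand setting and versions the sources used here give nothing. The authors also deposited tables of each knockout against WT with log2 fold changes, p-values and, for TE, a ratio. Deposited gene widths gave TPM. Counts were analysed in R 4.3.3 with edgeR 4.0.16, limma 3.58.1 and, as an alternative, DESeq2 1.42.0. After filterByExpr (15637 genes in RNA-seq, 14722 in Ribo-seq) and TMM scaling within each assay, a two-sided quasi-likelihood F-test took all 6 libraries of each assay together, with genotype as the only term, and adjusted by Benjamini-Hochberg over all genes. TE was the interaction of assay and genotype over 12 libraries and 13257 genes. edgeR's common coefficient of biological variation came to 0.0862 for mRNA and 0.119 for footprints. The fitting code was tested on simulated data. Promoters and gene order came from RefSeq (GRCh38.p14), another assembly than the counts' build, so only order and neighbours were used for the counts; 97.5% of tested RNA-seq genes had a place. The members, lists and alternatives were chosen with earlier results of these data known. All 37 members were named by rule, called members with their values in every library, and from each other list at most 3 called genes a direction. The labels tie replicate numbers to no batch, so the fit had no block. Deviations of same-numbered libraries correlated between genotypes by 0.15 to 0.31 in Ribo-seq and 0.070 to 0.18 in RNA-seq. These ranges overlap between the assays, so they do not settle whether the numbers pair the libraries. Alternatives were other scalings, no filter, DESeq2, a replicate block, 2 genotypes only, each library left out, moving neighbourhoods set aside and PGAM1 summed with its copies, the last chosen after seeing the data.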

Additional observations from a re-analysis of the deposited data

How the results depend on the processing

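With 2 libraries a genotype, small changes in the fit moved the number of members called, while 0 of the 30 calls changed direction under any alternative run, and 24 held under every scaling, filter, tool, block and 2-genotype alternative. Without the filter on low counts, 8 members were called in mRNA of 4EHP-null against WT and 8 in GIGYF1/2-null against WT, and in footprints 4, 4 and 10 (4EHP-null against WT, GIGYF1/2-null against WT, and between the knockouts). With a replicate block the mRNA counts were 8, 9 and 14 and the footprint counts 6, 6 and 14; neither the block nor the missing filter ended a call. DESeq2 called 2 members in footprints of 4EHP-null against WT, and fitting only the 2 genotypes compared gave 3 there and 1 in GIGYF1/2-null against WT. With members of moving neighbourhoods set aside, 2 mRNA and 0 footprint calls were left in 4EHP-null against WT, and 3 footprint calls between the knockouts. Leaving out 1 library gave 3 to 5 mRNA calls in 4EHP-null against WT, 3 to 9 in GIGYF1/2-null against WT and 5 to 11 between the knockouts, and 0 to 3, 0 to 2 and 0 to 6 in footprints. The cause of these shifts was not tested. TE stayed at 0 calls under every alternative run. Ribo-seq depth, 6536493 counts in the shallowest library, limits what footprints of low members such as PFKFB4 and SLC2A3 can show.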

Other observations

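Copies of glycolytic genes held footprints where they held almost no mRNA reads. The triosephosphate isomerase pseudogenes TPI1P2 and TPI1P3 had 21 to 60 and 0 to 8 RNA-seq counts a library but 507 to 899 and 559 to 1014 footprint counts. PGAM4 footprints stood at 470.0 and 481 CPM in WT, 297 and 341 CPM in 4EHP-null and 450.5 and 470.4 CPM in GIGYF1/2-null libraries, and were lower in 4EHP-null against WT, with a log2 change of -0.58 ± 0.14 (edgeR adjusted p = 0.0430), beside -0.55 ± 0.15 for PGAM1 itself. PGAM1P5 footprints stood at 191 and 209 CPM in WT, 114 and 159.7 CPM in 4EHP-null and 207 and 192 CPM in GIGYF1/2-null libraries, also lowest in the 4EHP-null libraries. A value for such a copy in Ribo-seq cannot be told apart from its parent gene's with these tables.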
